A study of Mus musculus with 6 samples.

Results

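The myeloid genes described here are 34 listed genes of monocytes, macrophages and neutrophils, measured in RNA of T cells purified from mouse spleen. The members were a fixed list of gene symbols, and each was read from the brightest probe set that names it alone. All 34 had such a probe set, among 22180 genes tested. They fell into 13 macrophage genes, 8 monocyte genes, 3 neutrophil genes and 10 genes shared by several myeloid cell types. The rule that gives the members uses no measured value, although the list was drawn up with earlier results of these data known.

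DUSP4 is a phosphatase that removes phosphate groups from MAP kinases, and the study examined T cells of mice that lack it. T cells were sorted from spleens of 3 WT and 3 DUSP4-/- mice aged 6 to 8 weeks by magnetic-assisted cell sorting (MACS), with neither culture nor treatment, and total RNA of each sample was hybridised to 1 Affymetrix Mouse Gene 2.0 ST array. All mice had been backcrossed to C57Bl/6, so WT and DUSP4-/- share that background apart from the targeted locus and what flanks it. The stated purity of the sort was 90 to 95%, which leaves room for other spleen cells in every sample. The study's methods describe a CD4 T cell sort that removes cells bearing B220, CD11b, CD49b, Ter119 or CD8, while the sample labels say T cells. Cd8a, which encodes a chain of the CD8 coreceptor, read 10.32 to 10.79 over the 6 arrays, and Cd4 read 10.82 to 11.10. Cd8a signal was thus far above the median of all probe sets (5.03) on every array, although the described sort removes cells bearing CD8. The labels do not name the sort that was used. Values are log2 RMA values, the background-corrected and quantile-normalized probe set signals, so a difference of 1.00 is a doubling of signal. Signals of different probe sets are not on 1 scale and are not ranked against each other.

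T cells do not belong to the myeloid lineage. Red pulp macrophages of the spleen engulf aged red cells, degrade their haem and return the iron to the blood, and they carry F4/80, VCAM1 and ferroportin. Monocytes and neutrophils circulate, and the spleen also holds a reserve of monocytes. All of these cells depend on the transcription factor PU.1, and macrophages and monocytes also on the CSF1 receptor. Because T cells make little of most of these transcripts, the genes serve as a guide to how much RNA of other cells each T cell array holds. In a bulk sample, fewer cells of a type and less RNA per cell cannot be told apart.

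PU.1, encoded by the member Spi1, is known to bind the purine-rich string GAGGAA. Of the 34 members, 22 were in the RefSeq promoter table (build GRCm38.p6). Adgre1, C1qa, Vcam1, Hmox1, Slc40a1, Msr1, Cd14, Tlr4, Csf1r, Sirpa, Tyrobp and Spi1 were not in it and were not searched for any string. For the others, the 250 bases before the start were searched on both strands for GAGGAA, which reads TTCCTC when it lies on the other strand. It was present for 12 of 22 members (54.5%), against 25.9% of the 27025 genes in the table. The 12 were C1qb, C1qc, Axl, Cd5l, Marco, Itgam, Clec7a, S100a8, Csf3r, Cd68, Fcgr3 and Ctss. Among the macrophage genes, 5 of the 7 in the table held it. The upstream sequences of the 4 of these for which WT replicate 3 was the highest array are shown, 5′ to 3′ on the gene's own strand, with the string in capitals.
C1qb (chr4:136886201-136886450, minus strand): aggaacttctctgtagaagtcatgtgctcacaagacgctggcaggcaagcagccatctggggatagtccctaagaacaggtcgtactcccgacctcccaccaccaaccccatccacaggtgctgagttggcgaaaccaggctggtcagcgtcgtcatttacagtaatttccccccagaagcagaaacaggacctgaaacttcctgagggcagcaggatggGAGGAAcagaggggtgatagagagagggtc
C1qc (chr4:136892915-136893164, minus strand): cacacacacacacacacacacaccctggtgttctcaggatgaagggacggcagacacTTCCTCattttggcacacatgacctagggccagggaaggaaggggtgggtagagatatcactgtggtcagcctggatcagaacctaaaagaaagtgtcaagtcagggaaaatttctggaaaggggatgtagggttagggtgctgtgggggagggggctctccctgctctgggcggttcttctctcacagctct
Axl (chr7:25788734-25788983, minus strand): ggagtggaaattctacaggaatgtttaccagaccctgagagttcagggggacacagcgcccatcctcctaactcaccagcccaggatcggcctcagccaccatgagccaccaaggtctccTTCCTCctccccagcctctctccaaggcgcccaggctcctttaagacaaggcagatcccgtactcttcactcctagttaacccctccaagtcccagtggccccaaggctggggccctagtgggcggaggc
Cd5l (chr3:87357631-87357880, plus strand): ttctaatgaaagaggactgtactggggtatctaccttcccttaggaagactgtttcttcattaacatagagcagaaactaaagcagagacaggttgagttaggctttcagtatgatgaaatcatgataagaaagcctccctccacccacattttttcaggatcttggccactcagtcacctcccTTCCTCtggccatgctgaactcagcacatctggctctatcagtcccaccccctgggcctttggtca
The string began 30 bases before the start in C1qb, 193 in C1qc, 130 in Axl and 66 in Cd5l. GAGGAA was 1 of 9 strings searched and is shown because more members held it than any other. The longer ETS strings AGGAAGT and GAGGAAGT, which overlap it, were held by 4 and 2 members, against 8.80% and 2.79% of all genes. The C/EBP strings TTGCGCAA, TTGCNNAA and TTNCNNAA were held by 0, 3 and 10 members, against 0.185%, 10.8% and 40.3% of genes. The antioxidant-response string TGACNNNGC, the AP-1 string TGAGTCA and the extended Maf recognition string, which contains the AP-1 string, were held by 1, 1 and 0 members, against 11.5%, 5.16% and 0.141% of genes. A match describes these letters and was not tested as a binding site.

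Cd3e, of the CD3 complex that defines T cells, read 11.49 to 11.78 over the 6 arrays. Dusp4, the targeted gene, read 6.33, 7.61 and 8.13 in WT replicates 1 to 3 and 5.10, 6.18 and 6.78 in DUSP4-/-. It was lower in DUSP4-/- in every pair of the same replicate number, by 1.23, 1.44 and 1.35, although the groups overlap when the pairs are ignored (limma, adjusted p = 1.00 without and 0.182 with the replicate block, a term for the replicate number). A signal remained in DUSP4-/-, and which exons its probes cover is not given in the sources used here. Xist, which is expressed from an inactive X chromosome, read 10.09 and 10.12 in replicate 1 of WT and DUSP4-/- and 3.58 to 3.87 in the other arrays. The labels give no sex, and replicate number and this difference cannot be told apart.

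The macrophage genes varied more between arrays than any other class of members. Their median range over the 6 arrays was 1.27 on the log2 scale, a 2.41-fold span, against 0.75 for the monocyte genes, 0.59 for the shared genes, 0.46 for the neutrophil genes and 0.51 (1.42-fold) for all genes. WT replicate 3 was the highest array for 11 of 13 macrophage genes, and WT replicate 1 the lowest for 10 of 13. Over all 34 members, WT replicate 3 was highest for 22 (64.7%), against 14.6% of all genes. WT replicate 1 was lowest for 17 of 34, against 21.2% of all genes. The extremes of the macrophage genes thus both lay within the WT group. WT replicate 1 was also the WT array with high Xist, so its contrast with WT replicate 3 cannot be told apart from that difference.

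The array level of a class, the median over its genes of the value minus the gene's mean over all arrays, shows the same spread. For the macrophage genes it was -0.45, 0.13 and 0.70 in WT replicates 1 to 3 and -0.13, 0.13 and -0.24 in DUSP4-/-. All 3 DUSP4-/- arrays lay between the lowest and the highest WT array. WT replicate 3 exceeded WT replicate 1 in 13 of 13 macrophage genes, with a median difference of 1.14 or 2.20-fold. The monocyte genes had levels of -0.21, 0.11 and 0.17 in WT and -0.10, 0.09 and -0.15 in DUSP4-/-, in the same order of arrays within WT over a narrower span. The shared genes stood at 0.23 in WT replicate 3 and between -0.10 and 0.00 elsewhere. The neutrophil genes were highest in replicate 2 of both genotypes, at 0.19 in WT and 0.19 in DUSP4-/-.

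**Figure D1:**
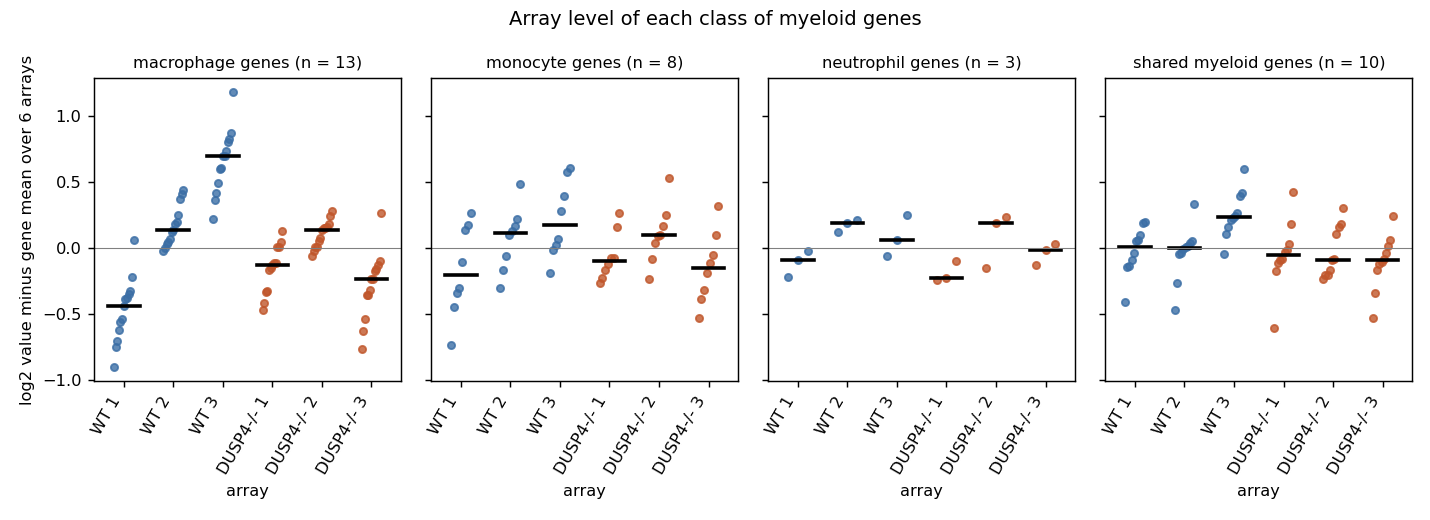
Level of the myeloid genes by array. Each point is 1 gene (log2 RMA value minus its mean over the 6 arrays, y axis) in 1 array (x axis: WT replicates 1 to 3 in blue, DUSP4-/- replicates 1 to 3 in orange), and the black bar is the median of the class; the macrophage genes run from a median of -0.45 in WT replicate 1 to 0.70 in WT replicate 3, while the medians of the 3 neutrophil genes stay between -0.23 and 0.19.

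Hmox1, haem oxygenase 1, which opens the haem ring, had the widest range of the macrophage genes. It read 6.48, 7.42 and 8.57 in WT and 6.92, 7.67 and 7.29 in DUSP4-/-. WT replicate 3 was 4.25-fold above WT replicate 1, and all DUSP4-/- arrays lay between them. Its mean was 0.871-fold of WT in DUSP4-/- (95% confidence interval 0.417 to 1.82; limma, adjusted p = 1.00). Slc40a1, ferroportin, the only known iron exporter of mammalian cells, read 6.55, 6.999 and 7.58 in WT and 7.01, 7.04 and 6.11 in DUSP4-/-. DUSP4-/- replicate 3 was the lowest array and WT replicate 3 the highest, 2.77-fold apart, while in pair 1 DUSP4-/- was higher by 0.45.

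The surface and scavenger genes of red pulp macrophages followed the same arrays. Adgre1, which encodes F4/80, read 4.997, 6.16 and 6.45 in WT and 5.79, 5.90 and 5.21 in DUSP4-/-. Its pairs differed by 0.80, -0.26 and -1.24, so DUSP4-/- was higher in pair 1 and lower in pair 3 (mean difference -0.23, 0.850-fold, interval 0.477 to 1.51, exact two-sided permutation p = 0.6). Vcam1, an adhesion molecule that marks red pulp macrophages and is also made by stroma, read 7.04, 7.93 and 8.55 in WT and 7.59, 7.99 and 7.39 in DUSP4-/-. The DUSP4-/- values again lay within the WT range, with pair differences of 0.55, 0.06 and -1.16. Cd5l, a secreted macrophage protein that sustains macrophage survival, read 4.68, 5.10 and 5.94 in WT and 4.79, 5.27 and 4.96 in DUSP4-/-. Only WT replicate 3 stood apart for Cd5l, 0.67 above the next array.

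Axl and Mertk are receptor tyrosine kinases with which macrophages recognise dying cells. Axl read 6.91, 7.49 and 7.78 in WT and 7.17, 7.43 and 6.97 in DUSP4-/-, and Mertk read 5.49, 6.12 and 6.92 in WT and 5.63, 6.23 and 5.92 in DUSP4-/-. For both, the DUSP4-/- arrays fell inside the WT range, and pair 3 held the largest difference, -0.81 for Axl and -1.001 for Mertk.

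C1qa, C1qb and C1qc encode the 3 chains of C1q, which starts the classical complement pathway and is made mainly by macrophages. C1qa read 6.05, 6.71 and 6.63 in WT and 5.93, 6.28 and 6.03 in DUSP4-/-. It was lower in DUSP4-/- in all pairs, by 0.11, 0.43 and 0.60, and only WT replicate 1 lay among the DUSP4-/- arrays. The mean was 0.769-fold of WT (interval 0.562 to 1.05; with the replicate block 0.621 to 0.952, block adjusted p = 0.762 in limma). C1qb read 6.46, 7.33 and 7.81 in WT and 6.91, 7.13 and 6.84 in DUSP4-/-, and C1qc read 5.12, 6.03 and 6.26 in WT and 5.53, 5.73 and 5.31 in DUSP4-/-. For both of these chains DUSP4-/- was higher in pair 1, by 0.46 and 0.41, and lower in the other pairs, so the chains of 1 complex did not share a direction in pair 1.

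Marco, Msr1 and Ms4a7 are macrophage genes that are not typical of red pulp. Marco, a scavenger receptor of marginal zone macrophages, read 4.71, 5.10 and 5.28 in WT and 4.94, 4.99 and 5.32 in DUSP4-/-, and was the macrophage gene whose mean was higher in DUSP4-/- (0.06, limma adjusted p = 1.00). Msr1, scavenger receptor A, read 3.51, 3.44 and 4.05 in WT and 3.45, 3.43 and 2.82 in DUSP4-/-. Its mean difference of -0.44 was the most negative of the 34 members, and its difference was -1.24 in pair 3, against -0.06 and -0.02 in the others. Ms4a7, a tetraspan membrane protein of macrophages, read 3.37, 3.89 and 4.17 in WT and 3.76, 3.76 and 3.57 in DUSP4-/-, which lay inside the WT range. Msr1 and Ms4a7 were the 2 macrophage genes below the median of all probe sets. Without these 3 genes the median macrophage difference was -0.24, against -0.23 with them.

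**Figure D2:**
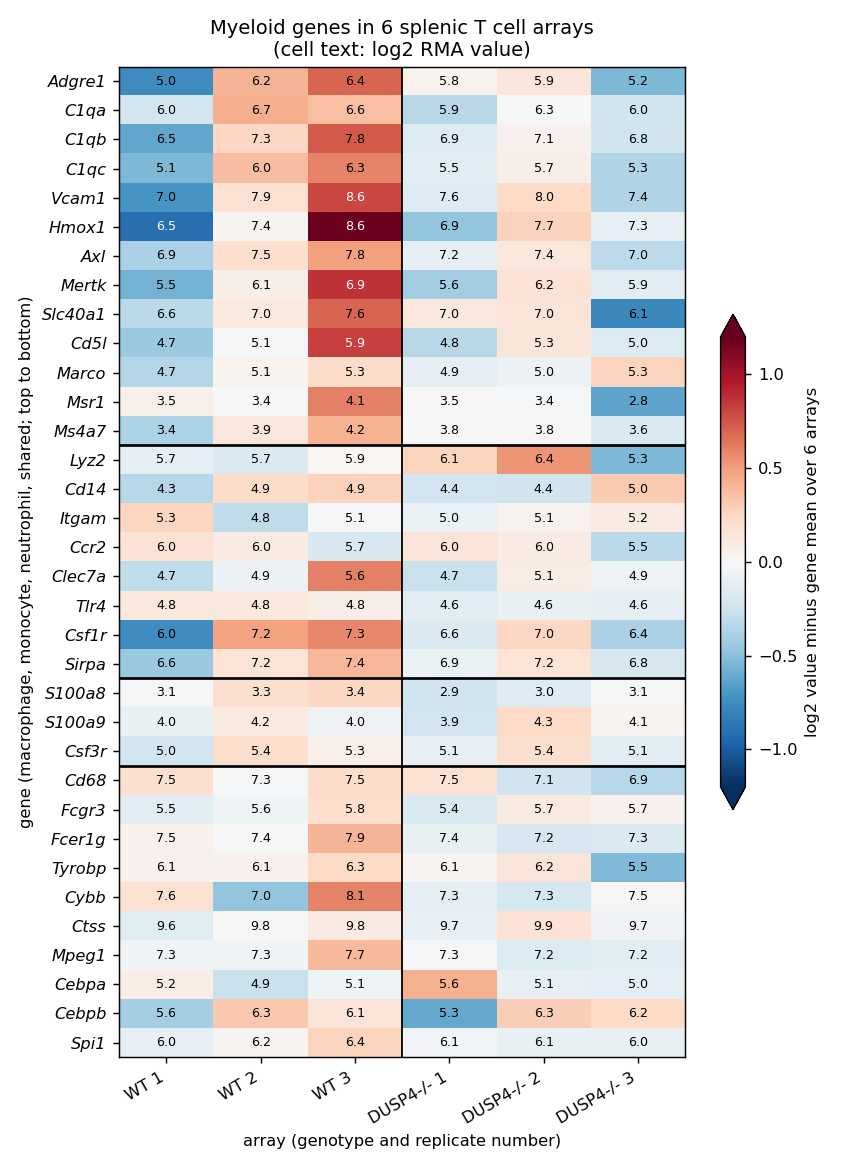
Values of the 34 myeloid genes in each array. Rows are genes in 4 classes separated by black lines, columns are the 6 arrays, the number in each cell is the log2 RMA value and the colour is that value minus the gene's mean over the arrays; the red block in WT replicate 3 and the blue block in WT replicate 1 cover most of the macrophage genes, and Csf1r and Sirpa among the monocyte genes share these colours.

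The monocyte genes differed in whether they varied as the macrophage genes did. Csf1r, the receptor for CSF1 and thus a gene of macrophages as well as monocytes, read 6.02, 7.24 and 7.34 in WT and 6.59, 7.01 and 6.37 in DUSP4-/-. Sirpa, the inhibitory receptor that reads CD47 on other cells, read 6.56, 7.17 and 7.40 in WT and 6.93, 7.17 and 6.81 in DUSP4-/-. Both had WT replicate 1 lowest and WT replicate 3 highest, with every DUSP4-/- array between them. Clec7a, the beta-glucan receptor Dectin-1, read 4.67, 4.91 and 5.58 in WT and 4.71, 5.07 and 4.92 in DUSP4-/-, where WT replicate 3 was again highest.

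The other monocyte genes did not have both of these arrays at their ends. Lyz2, lysozyme M, read 5.73, 5.67 and 5.86 in WT and 6.11, 6.37 and 5.31 in DUSP4-/-. Here the 3 WT arrays agreed within 0.19 and the spread lay in DUSP4-/-, 2 of whose arrays were above and 1 below all WT arrays. Its mean difference of 0.17 was the most positive of the members (1.13-fold, interval 0.752 to 1.69, exact permutation p = 0.6). Ccr2, the receptor that brings monocytes out of the marrow and that some T cells also express, read 6.03, 5.96 and 5.67 in WT and 6.02, 5.96 and 5.54 in DUSP4-/-. Same-numbered arrays were within 0.13 of each other for Ccr2, and replicate 3 was the lowest of both genotypes. Cd14, a coreceptor for lipopolysaccharide, read 4.29, 4.85 and 4.92 in WT and 4.40, 4.40 and 4.95 in DUSP4-/-, lowest in WT replicate 1 like the macrophage genes and highest in DUSP4-/- replicate 3. Itgam, which encodes CD11b, read 5.33, 4.76 and 5.05 in WT and 4.99, 5.11 and 5.17 in DUSP4-/-, with overlapping groups for both genes. Tlr4, which senses lipopolysaccharide, read 4.85, 4.84 and 4.79 in WT and 4.59, 4.63 and 4.61 in DUSP4-/-. Its groups did not overlap, and all 3 pairs were lower in DUSP4-/-, by 0.25, 0.21 and 0.18. The mean was 0.861-fold of WT (interval 0.719 to 1.03; exact permutation p = 0.1, the smallest that 3 against 3 arrays allow; limma adjusted p = 1.00), at a signal below the median probe set.

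The neutrophil genes had a lower median range over the arrays than the other classes. S100a8 and S100a9 encode the pair of proteins of calprotectin, abundant in neutrophils. S100a8 read 3.10, 3.32 and 3.37 in WT and 2.88, 2.98 and 3.11 in DUSP4-/-, and S100a9 read 4.01, 4.23 and 4.04 in WT and 3.88, 4.34 and 4.14 in DUSP4-/-. S100a8 was lower in DUSP4-/- in all pairs, by 0.22, 0.34 and 0.26 (0.827-fold, interval 0.668 to 1.02; with the replicate block 0.705 to 0.971, block adjusted p = 0.762 in limma), and its groups overlapped at 3.10 and 3.11. S100a9 had pairs of both signs. Csf3r, the G-CSF receptor, read 4.99, 5.42 and 5.27 in WT and 5.11, 5.40 and 5.08 in DUSP4-/-, with overlapping groups. Of the 3 genes only Csf3r was above the median of all probe sets.

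The shared myeloid genes were all above the median of all probe sets, and several of them are also expressed by lymphocytes or dendritic cells. Fcer1g, the signalling chain of Fc receptors, which NK cells and mast cells use too, read 7.50, 7.45 and 7.86 in WT and 7.36, 7.24 and 7.28 in DUSP4-/-. Its groups did not overlap, and it was lower in DUSP4-/- by 0.14, 0.21 and 0.58 in the pairs (0.807-fold, interval 0.640 to 1.02; exact permutation p = 0.1; with the replicate block 0.654 to 0.996, block adjusted p = 0.776 in limma). Tyrobp, the related adaptor DAP12, read 6.11, 6.10 and 6.30 in WT and 6.09, 6.22 and 5.53 in DUSP4-/-, where replicate 3 was 0.56 below the next array. Fcgr3, an activating IgG receptor that signals through Fcer1g, read 5.49, 5.58 and 5.84 in WT and 5.45, 5.73 and 5.69 in DUSP4-/-, a mean difference of -0.01. Its groups overlapped.

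Cd68, a lysosomal glycoprotein of phagocytes, read 7.49, 7.28 and 7.52 in WT and 7.47, 7.05 and 6.95 in DUSP4-/-. It was lower in DUSP4-/- in all pairs, by 0.01, 0.23 and 0.57, with overlapping groups. Ctss, the lysosomal protease cathepsin S, which B cells also express, read 9.60, 9.76 and 9.85 in WT and 9.65, 9.93 and 9.71 in DUSP4-/-. Ctss had the narrowest range after Tlr4, 0.32. Mpeg1, the pore-forming protein perforin-2, read 7.31, 7.32 and 7.75 in WT and 7.34, 7.19 and 7.23 in DUSP4-/-. Cybb, the catalytic subunit of the phagocyte oxidase, read 7.65, 6.99 and 8.06 in WT and 7.34, 7.25 and 7.47 in DUSP4-/-. WT replicate 3 was the highest array for both Mpeg1 and Cybb, and the groups overlapped.

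The 3 transcription factor genes differed in how steady they were. Spi1, which encodes PU.1, read 6.04, 6.17 and 6.40 in WT and 6.11, 6.05 and 6.05 in DUSP4-/-, with every DUSP4-/- array within the WT range of 0.36. Cebpa, which directs early myeloid development, read 5.24, 4.88 and 5.10 in WT and 5.57, 5.05 and 5.05 in DUSP4-/-, highest in DUSP4-/- replicate 1. Cebpb, which acts in activated macrophages and many other cells, read 5.55, 6.29 and 6.12 in WT and 5.35, 6.26 and 6.20 in DUSP4-/-. Replicate 1 was the lowest array of both genotypes for Cebpb, by 0.57 or more, and the difference between genotypes was -0.05.

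No myeloid gene passed the test between DUSP4-/- and WT. By limma with Benjamini-Hochberg adjustment over all probe sets naming 1 gene, 0 of 34 members were called at 0.05. The background was 0% of all genes, and every member had an adjusted p of 1.00 in limma. At an unadjusted p of 0.05, 0 members were called lower against 0.911% of all genes, and 0 higher against 1.79%. With the replicate block, 0 members passed after adjustment, and 3 (C1qa, S100a8 and Fcer1g, 8.82%) were lower at an unadjusted 0.05 against 2.49% of all genes, while 0 were higher against 3.70%. Groups that did not overlap were found for 2 members with DUSP4-/- lower, Tlr4 and Fcer1g (5.88%, against 2.43% of all genes), and for 0 with DUSP4-/- higher (against 5.02%). DUSP4-/- was lower in all 3 pairs for 6 members, C1qa, Msr1, Tlr4, S100a8, Cd68 and Fcer1g (17.6%, against 11.1% of all genes), and higher in all 3 for 0 (against 16.6%).

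The means of most members were lower in DUSP4-/-, but not when WT replicate 3 was left out. The mean was below WT for 28 of 34 members, with a median difference of -0.20, against a median of 0.02 over all genes, of which 9790 of 22180 were below WT. By class, 12 of 13 macrophage, 6 of 8 monocyte, 2 of 3 neutrophil and 8 of 10 shared genes were below WT, with medians of -0.23, -0.09, -0.03 and -0.17. The 34 members share arrays and, within a cell type, a source, so they are not independent counts.

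Taken pair by pair, the median difference of the macrophage genes was 0.39 in pair 1, -0.06 in pair 2 and -0.98 in pair 3. DUSP4-/- was above WT for 11 of 13 macrophage genes in pair 1 and below it for 12 of 13 in pair 3. The monocyte genes had medians of 0.08, 0.00 and -0.37, the neutrophil genes -0.14, -0.02 and -0.19, and the shared genes -0.02, 0.04 and -0.44. The sign of the macrophage median turned when WT replicate 3 was left out, to 0.07 with 5 of 13 genes below WT, and over all members the median became 0.02 with 15 of 34 below WT. Without pair 3, with the replicate block, it was 0.13 with 2 of 13 macrophage genes below WT and 0.06 with 13 of 34 members below WT. Without WT replicate 1 the macrophage median was -0.58, with 13 of 13 genes below WT, and it was -0.52 without pair 1 and -0.37 without DUSP4-/- replicate 2. Leaving out DUSP4-/- replicate 3 gave a macrophage median of -0.17, with 13 of 13 macrophage genes and 27 of 34 members below WT. These counts without an array were added after seeing the data.

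**Figure D3:**
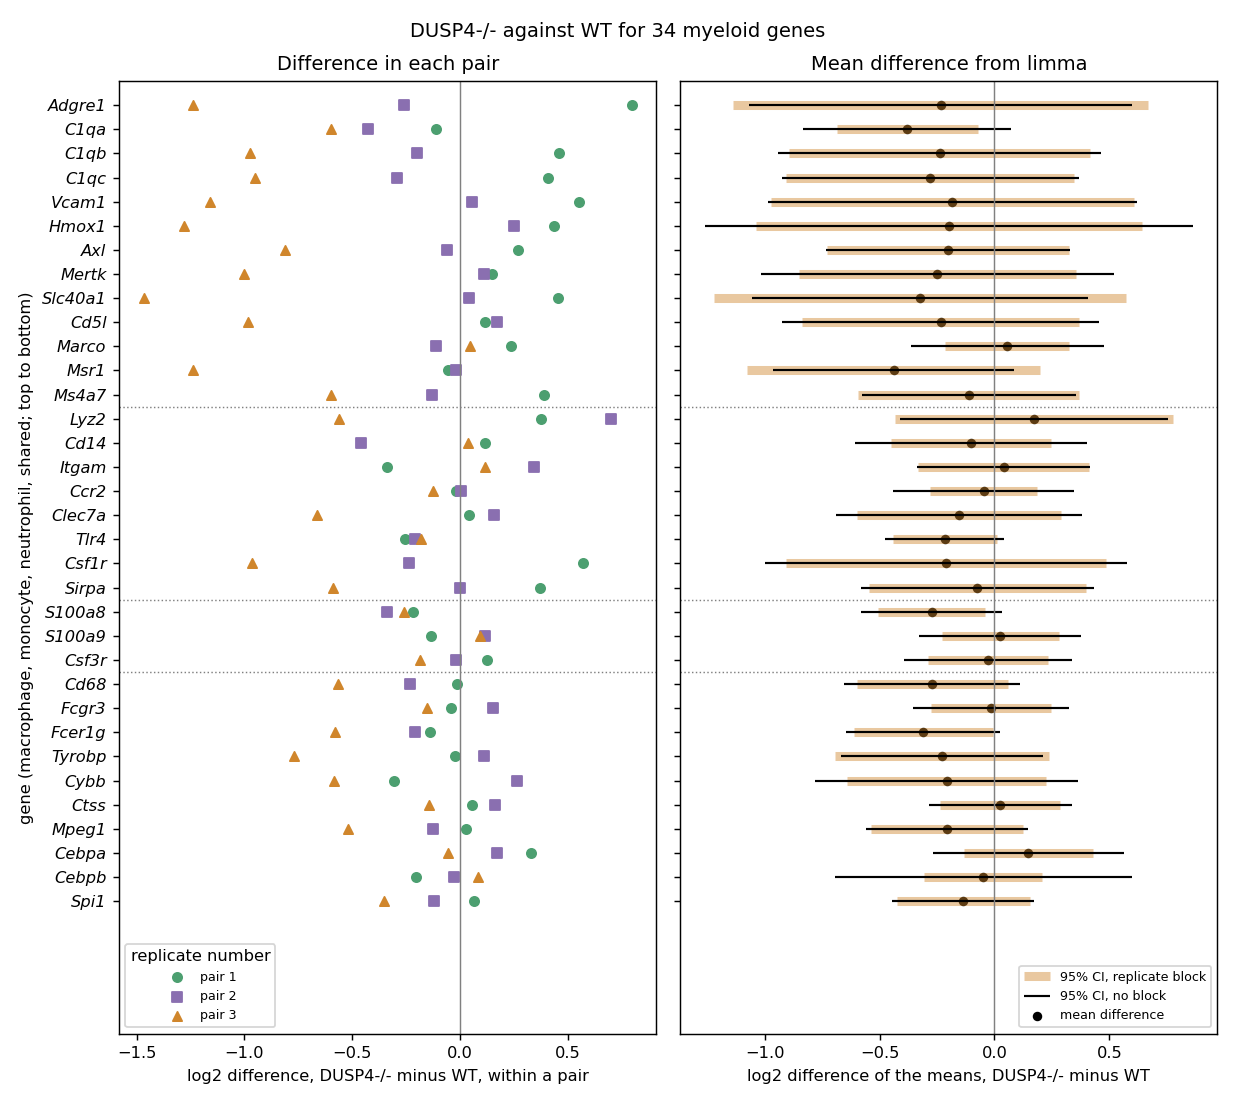
DUSP4-/- minus WT for the 34 myeloid genes. Left, the log2 difference in each of the 3 pairs of the same replicate number (green circles pair 1, purple squares pair 2, orange triangles pair 3); right, the mean difference (points) with its 95% confidence interval from limma without a block (black lines) and with the replicate block (orange bands). In the macrophage genes at the top, pair 1 lies mostly right of 0 and pair 3 left of it at a median of -0.98, and every interval without a block includes 0.

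Further genes of the same cells, which are not members, were counted in the same way. Of 16 measured genes of red pulp macrophages and iron recycling, 10 were below WT with a median difference of -0.06, and their array levels ran from -0.16 in WT replicate 1 to 0.22 in WT replicate 3 and -0.28 in DUSP4-/- replicate 3. Their pair medians of 0.11, 0.00 and -0.36 had the signs of those of the macrophage genes in pairs 1 and 3. The brightest of them, the ferritin heavy chain gene Fth1, which most cells express, read 11.26 to 11.57 in WT and 11.35 to 11.56 in DUSP4-/-. Creg1, a lysosomal glycoprotein gene, read 8.33 to 8.45 in WT and 8.06 to 8.61 in DUSP4-/-. Lgmn, a lysosomal protease gene of macrophages, read 7.001, 7.09 and 7.35 in WT and 7.14, 7.18 and 6.82 in DUSP4-/-, with WT replicate 3 highest and DUSP4-/- replicate 3 lowest, as for Slc40a1. Spic, the transcription factor on which red pulp macrophages depend, was chosen for mention once its values were known, and read 5.49, 5.99 and 7.08 in WT and 5.84, 6.32 and 5.52 in DUSP4-/-. Its pair differences of 0.35, 0.33 and -1.56 turned sign between pairs like those of Hmox1.

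Of 21 further monocyte genes, 10 were below WT with a median of 0.01. Of 20 further neutrophil genes, 11 were below WT with a median of -0.04. The pair medians were 0.12, 0.02 and -0.17 for the further monocyte genes and 0.05, 0.07 and 0.05 for the further neutrophil genes. Ly6c2, a surface protein that memory T cells carry as well as monocytes, read 10.02 to 10.36 over the arrays. Plac8 read 7.18 to 7.45 in WT and 7.06 to 7.49 in DUSP4-/-, and Ifitm3, an antiviral membrane protein, read 6.85, 6.92 and 7.33 in WT and 7.02, 6.89 and 6.26 in DUSP4-/-. The 3 brightest of the further neutrophil genes, which encode granule proteins of neutrophil precursors, had another order of arrays. Mpo, myeloperoxidase, read 7.05, 7.83 and 6.73 in WT and 7.05, 8.28 and 6.04 in DUSP4-/-. Elane, neutrophil elastase, read 6.64, 7.37 and 6.56 in WT and 6.28, 7.83 and 5.75 in DUSP4-/-. Prtn3, proteinase 3, read 6.27, 6.67 and 6.05 in WT and 6.30, 7.22 and 5.55 in DUSP4-/-. Replicate 2 was the highest array of both genotypes for all 3, and replicate 3 of DUSP4-/- the lowest, an order that the macrophage genes did not have in WT.

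Genes that work with the shared members differed little in overall median but not in every pair, while dendritic cell markers had a median below WT in every pair. Of 15 partners of the ITAM adaptors Fcer1g and Tyrobp and other Fc receptor genes, 10 were below WT with a median of -0.05. Their pair medians of 0.17, -0.07 and -0.34 had the signs of those of the macrophage genes. In WT their array levels of -0.21, -0.03 and 0.11 rose in the order of the macrophage genes. Of 5 subunits of the phagocyte oxidase, Cybb included, 3 were below WT with a median of -0.06. Pair medians of these subunits were -0.14, 0.09 and -0.08. Among 16 dendritic cell markers 13 were below WT with a median of -0.15, and their pair medians were -0.11, -0.16 and -0.13. Among the 16 markers, groups did not overlap for 2 with DUSP4-/- lower, against 2.43% of all genes. They did not overlap for another 2 with DUSP4-/- higher, against 5.02%. Cd209a, a lectin of dendritic cells, read 9.05, 8.97 and 8.88 in WT and 8.87, 8.63 and 8.73 in DUSP4-/-. For Cd209a DUSP4-/- was lower without overlap by a margin of 0.01. Bst2, of plasmacytoid dendritic cells and an interferon-stimulated gene, read 7.04, 6.84 and 7.92 in WT and 6.65, 6.77 and 7.77 in DUSP4-/-, and Ly75, the antigen-uptake receptor DEC-205, read 7.58 to 7.80. No gene of any of these lists was called at an adjusted p of 0.05 (limma), with or without the replicate block.

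The markers of other cells did not order the arrays as the macrophage genes did. B cell markers (14 measured) had levels of 0.43, -0.34 and -0.05 in WT and 0.61, -0.38 and -0.10 in DUSP4-/-, so replicate 1 of both genotypes was highest, where the macrophage genes were lowest in WT. Their summed level, as a multiple of its mean over arrays, was 0.695 to 1.36 in WT and 0.710 to 1.42 in DUSP4-/-. Cd79a, a chain of the B cell receptor, read 8.68, 7.22 and 8.01 in WT and 8.61, 7.33 and 8.11 in DUSP4-/-. Erythroid markers (8 measured) had levels of 0.41, -0.22 and -0.01 in WT and 0.46, -0.21 and -0.39 in DUSP4-/-, with summed levels of 0.807 to 1.19 and 0.779 to 1.36. NK cell markers (10 measured) had 0.25, -0.18 and 0.03 in WT and 0.28, -0.11 and -0.16 in DUSP4-/-, with summed levels of 0.920 to 1.24 and 0.855 to 1.14. Same-numbered arrays lay close in these lists, except for the erythroid markers in replicate 3, whereas the macrophage genes of WT and DUSP4-/- replicate 3 lay 0.94 apart in level.

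The other lists differed in how far they varied. Platelet markers (9 measured) lay between -0.07 and 0.06 and stromal and endothelial markers (14 measured) between -0.13 and 0.05, with medians of the genotype difference of 0.00 and 0.07. Plasma cell markers (10 measured) were 9 of 10 below WT with a median of -0.24, and had levels of 0.25, -0.15 and 0.18 in WT and -0.13, -0.29 and 0.03 in DUSP4-/-. Their pair medians were -0.43, -0.15 and -0.11, below WT in every pair. The T cell markers stayed between -0.06 and 0.07, and 22 genes of tissues other than spleen, 20 of them below the median of all probe sets, between -0.05 and 0.04. The summed level of the macrophage genes ranged from 0.648 to 1.60 in WT and from 0.776 to 1.06 in DUSP4-/-, and that of all members from 0.835 to 1.32 and from 0.869 to 1.04. Whether the number of macrophages carried through each sort differed was not tested.

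**Figure D4:**
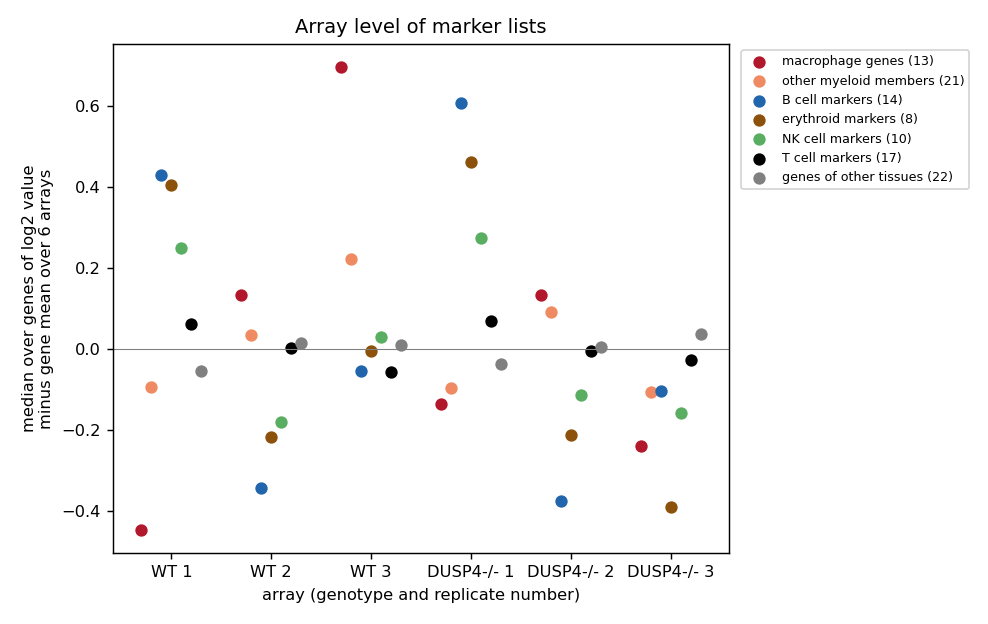
Array level of marker lists. Each point is the median over the genes of a list (number of genes in brackets) of the log2 RMA value minus the gene's mean over arrays (y axis) for 1 array (x axis, genotype and replicate number); the macrophage genes reach 0.70 in WT replicate 3 and -0.45 in WT replicate 1, B cell and erythroid markers are highest in replicate 1 of both genotypes, and T cell markers and genes of other tissues stay within 0.07 of 0.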

How the data were processed

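T cell RNA of 3 WT and 3 DUSP4-/- spleens was measured on 1 array each. The deposited values, on a log2 scale, were made by the authors with RMA in Affymetrix Expression Console, per the submitters' processing notes, with no version given in the sources used here. The table held 41345 probe sets, with array medians of 4.99 to 5.07. The number of arrays limits the precision, and depth does not apply.

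Of the probe sets, 23521 named 1 gene, and 1820 naming several and 16004 naming none were left out. The brightest probe set by mean over all arrays was used per gene, which gave 22180 genes, and each member had 1. Names came from the platform annotation, and 23328 probe sets matched GRCm38.p6 by Entrez gene. The difference of DUSP4-/- from WT was estimated in limma 3.58.1 (lmFit and eBayes, R 4.3.3) with genotype as the only term. The fit and the Benjamini and Hochberg adjustment covered all 23521 probe sets naming 1 gene, before the brightest was picked. The procedure was tested on simulated data with changes larger than any member's difference. That test does not show whether differences of the members' size could be called. Exact two-sided permutation tests were added for single members. The p-values measure the spread between these samples, which the study describes as independent pairs.

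The replicate numbers were checked for pairing. Deviations of same-numbered samples from their genotype means correlated over genes at 0.584, 0.313 and 0.439, and other combinations at -0.444 to 0.095. Deviations within a genotype cancel out, so positive same-numbered values bring negative ones elsewhere, which are no separate evidence of pairing. Replicate 1 of both genotypes also shares high Xist. Fits with a term for replicate number (the replicate block) and differences within pairs are therefore given beside the main fit.

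The members and lists were chosen with earlier results of these data known. All members were named, with up to 3 of the brightest genes of each other list, Dusp4 and Xist, and Cd4, Cd8a and Spic outside that rule. Lists are described by counts and medians, without a test. Alternatives were leaving out each sample or pair, leaving out probe sets below the median, intensity trend with robust settings, array weights, a second quantile normalization, subtraction of array medians, the mean over probe sets, a threshold of 0.1 and the methods' gene-by-gene analysis of variance. Promoter sequences are those of RefSeq, GRCm38.p6.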

Additional observations from a re-analysis of the deposited data

How the results depend on the processing

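With the replicate block 0 genes and 0 members were called at an adjusted p of 0.05, as without it, so the block changed no call. The median differences were the same values, as they must be when every replicate number holds both genotypes. Over every alternative with an adjusted p, 0 members were called, and the lowest adjusted p of a member was 0.704. The methods' analysis of variance called 788 of 22180 genes and 1 of 34 members (Tlr4) at an unadjusted 0.05 and 0 of either after adjustment. Leaving out a sample or pair gave 0 to 1 genes called, the 1 without WT replicate 1. In those fits members below WT ranged from 13 to 31 and macrophage genes below WT from 2 to 13. The median differences ranged from -0.31 to 0.056 for all members, -0.58 to 0.13 for the macrophage genes, -0.25 to 0.050 for the monocyte genes, -0.15 to 0.070 for the neutrophil genes and -0.23 to -0.010 for the shared genes. The sign of 8 members (C1qa, Cd68, Fcer1g, Mpeg1, Msr1, S100a8, Spi1 and Tlr4) was the same in all of those fits, and that of 26 turned in at least 1. The ranges of the latter were Adgre1 -0.75 to 0.27, Axl -0.45 to 0.10, C1qb -0.61 to 0.13, C1qc -0.62 to 0.056, Ccr2 -0.16 to 0.10, Cd14 -0.30 to 0.075, Cd5l -0.51 to 0.14, Cebpa -0.028 to 0.25, Cebpb -0.27 to 0.24, Clec7a -0.35 to 0.11, Csf1r -0.63 to 0.17, Csf3r -0.15 to 0.070, Ctss -0.056 to 0.11, Cybb -0.50 to 0.038, Fcgr3 -0.098 to 0.088, Hmox1 -0.70 to 0.34, Itgam -0.11 to 0.23, Lyz2 -0.093 to 0.54, Marco -0.10 to 0.18, Mertk -0.59 to 0.13, Ms4a7 -0.36 to 0.13, S100a9 -0.088 to 0.14, Sirpa -0.32 to 0.18, Slc40a1 -0.71 to 0.25, Tyrobp -0.40 to 0.044 and Vcam1 -0.58 to 0.30. Under the other alternatives 226 of 231 member differences had the main sign. The exceptions were Cybb (0.027), Fcgr3 (0.060) and Marco (-0.036) under array weights, and Fcgr3 (0.0051) and S100a9 (-0.0041) after a second quantile normalization. Many of the 231 could not differ from the main value. The replicate block, intensity trend with robust settings, mean over probe sets and removal of probe sets below the median cannot alter a member's difference. Causes were not tested. With 3 arrays per genotype an exact permutation p cannot go below 0.1, and S100a8, Msr1, Ms4a7, Tlr4 and the other members below the median probe set are dim.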
